A study of Homo sapiens with 6 samples.

Results

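The genes described here are 52 human genes of the glutathione, thioredoxin and NRF2 system, taken by name from the 54628 gene symbols of each count table. They were listed for what their products do and no measured value entered the rule. They comprise 7 regulators of NRF2, 17 genes known as direct NRF2 targets and 28 other antioxidant enzymes and partners, called constitutive here. That name only sets the 28 apart from the listed targets. Some of them, such as SOD2, can be induced, and a response to NRF2 is not excluded for them. The choice of the genes and their split into targets and constitutive genes follow general knowledge of the pathway. Both were made with earlier results of these data known. RNA came from U87 cells, an established human glioblastoma line, recovered from a co-culture by fluorescence-activated sorting. The labels give 3 libraries of cycling cells that received mitochondria (received) and 3 libraries of cycling cells that did not (not received). Both groups are the same line and went through the same co-culture and sort. The series title names astrocytes as the source of the mitochondria, and the labels used here give neither the species of the astrocytes, the length of the co-culture nor how receipt was read in the sort. Whether replicates came from separate cultures is not in the labels, so p-values measure only the spread between these samples, which may be technical.

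NRF2, encoded by NFE2L2, is a transcription factor that switches on genes for detoxification and for the handling of reactive oxygen. In unstressed cells the adaptor KEAP1 hands NRF2 to a ubiquitin ligase for destruction, and electrophiles or oxidants stop this, so that NRF2 pairs with a small MAF protein on antioxidant response elements in its target genes. BACH1 is a repressor that occupies the same kind of element. Because NRF2 is regulated chiefly through its protein, its activity is usually read from its targets and not from its own mRNA. Glutathione and thioredoxin are the main thiol systems of the cell, and both draw their reducing power from NADPH.

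Total counts ran from 17879552 to 21314558 in received libraries and from 18549585 to 46392491 in not-received libraries. Levels are given as CPM, that is, counts scaled to library size with TMM normalization, and 3 counts correspond to 0.0661 CPM in the deepest and 0.167 CPM in the shallowest library. Such floors reflect counting error alone, because the reads carry no molecular identifiers and are not independent molecules. Not-received replicate 2 was the deepest library and lay apart from its group on the first principal component (44.4, against 13.8 and 14.8 for not-received replicates 1 and 3), so results are also given without it where that matters. Of 9 transcripts listed for U87 cells, VIM, TNC, CAV1 and CD44 were abundant, VIM at 4680 CPM in received and 3918 CPM in not-received cells, whereas SOX2 was at 0.607 and 0.102 CPM and OLIG2 at 4.85 and 2.97 CPM. Of the 7 tested, VIM, NES and OLIG2 were called higher and CD44, CAV1 and CHI3L1 lower in received cells. CDKN2A, which is deleted in U87, had 0 counts in each library. Of 10 astrocyte markers, AQP4, ALDH1L1 and GJB6 had 0 counts in all 6 libraries. The summed level of the 10 was 37.9 to 41.4 CPM in received and 36.2 to 39.2 CPM in not-received libraries, nearly all of it from SLC1A3 and SOX9, which glioma cells also express. SOX9 was itself called higher in received cells (log2 fold change 0.31, edgeR adjusted p = 0.0198), and SLC1A3, at -0.20, was not called. Summed myeloid markers were at 20.3 to 22.8 CPM in received and 20.1 to 21.5 CPM in not-received libraries, and summed endothelial markers at 18.2 to 20.3 and 13.9 to 18.5 CPM. Nearly all of the myeloid sum was CSF1R, at 19.8 to 22.2 CPM over the 6 libraries, and AIF1, CX3CR1, P2RY12 and TYROBP had 0 counts in each. Most of the endothelial sum was KDR, at 12.2 to 18.8 CPM. The part of these markers in the results was not tested.

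Of the 52 genes, 49 had enough counts to be tested. Fell and rose are used here for levels lower or higher in received than in not-received cells. Whether a difference was present before receipt was not tested. In cells that had received mitochondria 12 of the 49 fell and 3 rose (edgeR quasi-likelihood test, Benjamini-Hochberg adjusted p under 0.05 over all 14100 genes tested, hereafter a call). That is 30.6% called, where 18.9% of all genes tested were called, 9.67% lower and 9.21% higher (DESeq2 called 18.8%). Without received replicate 2 or 3 the 12 became 7 or 6, while all genes called lower went down as well, to 727 and 799, against 1364 with all libraries. Libraries of the groups did not overlap for 22 of the 49, or 44.9%, beside 39.0% of all genes tested (19.5% in each direction). Among called genes the largest changes were in a subset of the NRF2 targets: the transporters ABCC3 and ABCC2, the quinone reductase NQO1, the epoxide hydrolase EPHX1, OSGIN1 and the thioredoxin reductase TXNRD1 fell. Targets that make glutathione or repair peroxiredoxins, among them GCLC, GCLM, GSR and SRXN1, had log2 fold changes between -0.05 and -0.02 and were not called. Outside the listed targets, SOD2, TXNIP and BACH1 rose and SOD1 and 5 glutathione transferases fell, all with log2 fold changes between -0.39 and 0.39.

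**Figure D1:**
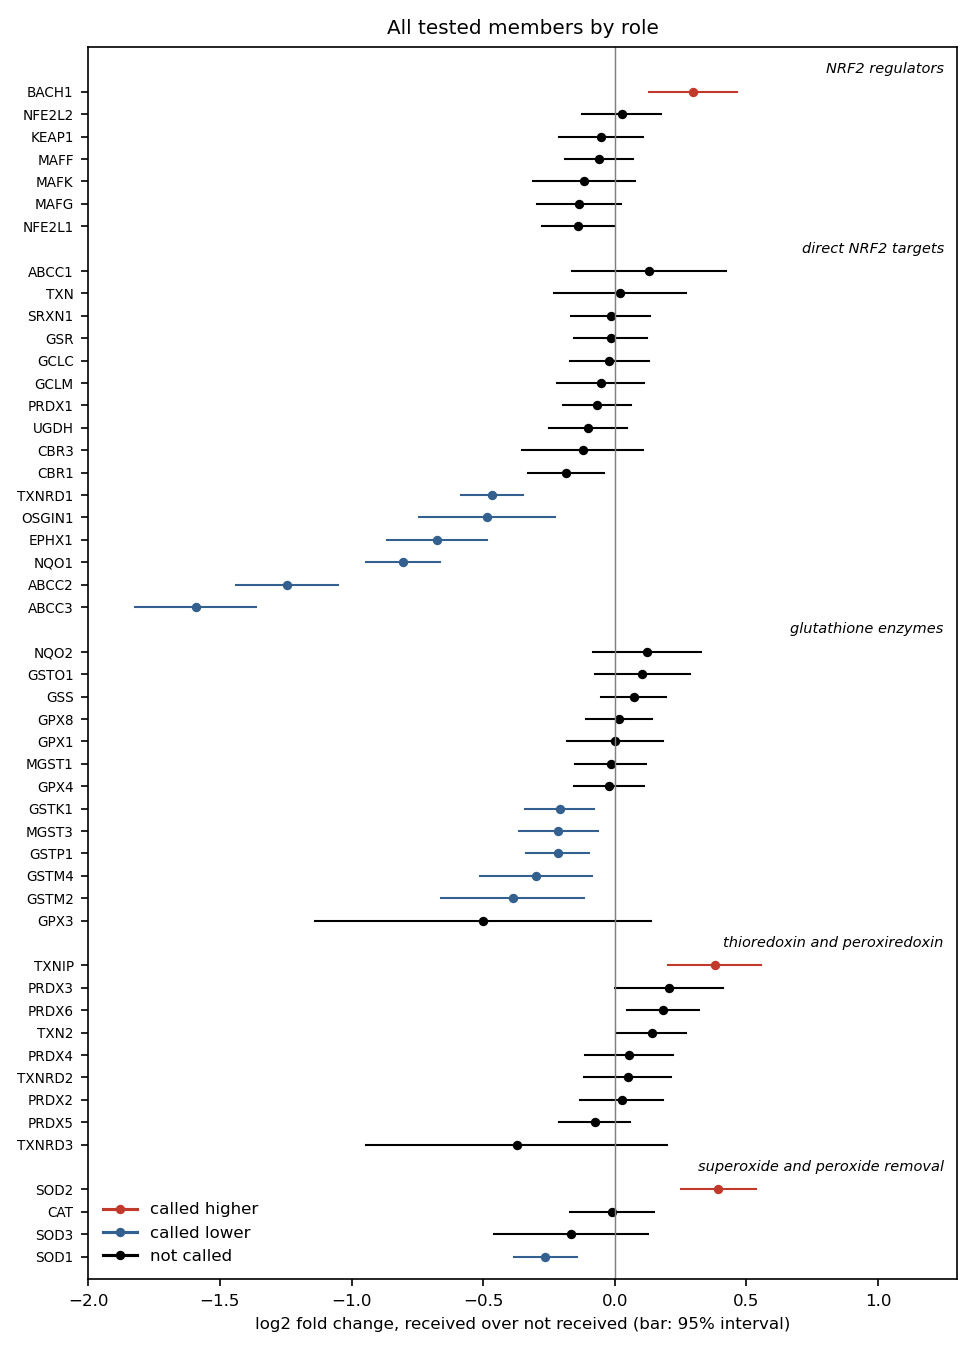
Log2 fold change, received over not received, of the 49 tested genes by role, with 95% intervals from edgeR (n = 3 libraries each). Red marks genes called higher, blue genes called lower and black genes not called; ABCC3 (-1.59) and ABCC2 (-1.24) lie farthest from 0.

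The regulators showed little movement in mRNA. NFE2L2, which encodes NRF2 itself, stood at 108, 126 and 112 CPM in received libraries, against 107, 114 and 119 CPM in not-received libraries. The groups overlapped, and the log2 fold change was 0.03 (95% interval -0.12 to 0.18, edgeR adjusted p = 0.818). KEAP1, the adaptor that marks NRF2 for destruction, had 78.7, 79.1 and 83.7 CPM in received and 91.9, 75.6 and 83.4 CPM in not-received libraries. Those groups overlapped as well (log2 fold change -0.05, interval -0.21 to 0.11). Of the small MAF partners of NRF2, MAFF, MAFG and MAFK had log2 fold changes of -0.06, -0.14 and -0.12, and the related factor NFE2L1, which drives proteasome genes, had -0.14 (edgeR adjusted p = 0.140). None of these 4 was called. Of the 7 regulators 0 were called lower by edgeR, with 1 (NFE2L1) below an unadjusted p of 0.05, and 0 by DESeq2 or limma-voom. With BACH1, described next, 14.3% of the 7 were called, beside 18.9% of all genes tested.

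BACH1, the repressor that competes with NRF2 for its elements, was the single regulator called. It stood at 38.7, 38.6 and 35.6 CPM in received libraries and at 29.2, 30.0 and 32.8 CPM in not-received libraries. All 3 received libraries lay above all 3 not-received ones, with a log2 fold change of 0.30 ± 0.08 (SE; edgeR adjusted p = 0.0172). The call was lost without received replicate 1 (edgeR adjusted p = 0.0840) or received replicate 2 (0.0722). Within each library the BACH1 to NFE2L2 ratio of CPM was 0.358, 0.305 and 0.317 in received and 0.272, 0.265 and 0.275 in not-received cells, a measure that scaling between libraries cannot move.

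Of the 16 direct NRF2 targets tested, 6 fell and 0 rose by edgeR. That is 37.5% called lower, beside 9.67% of all genes tested. At an unadjusted p under 0.05 there were 7 lower and 0 higher, and DESeq2 and limma-voom each also called 6 lower and 0 higher. The median log2 fold change of the 16 was -0.11, where the median of all tested genes was -0.00, and 14 of the 16 values were negative. The 16 values fell into a group of 6 between -1.59 and -0.47 and a group of 10 between -0.19 and 0.13. With any 1 library left out the count of 6 became 5, 6 or 7.

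**Figure D2:**
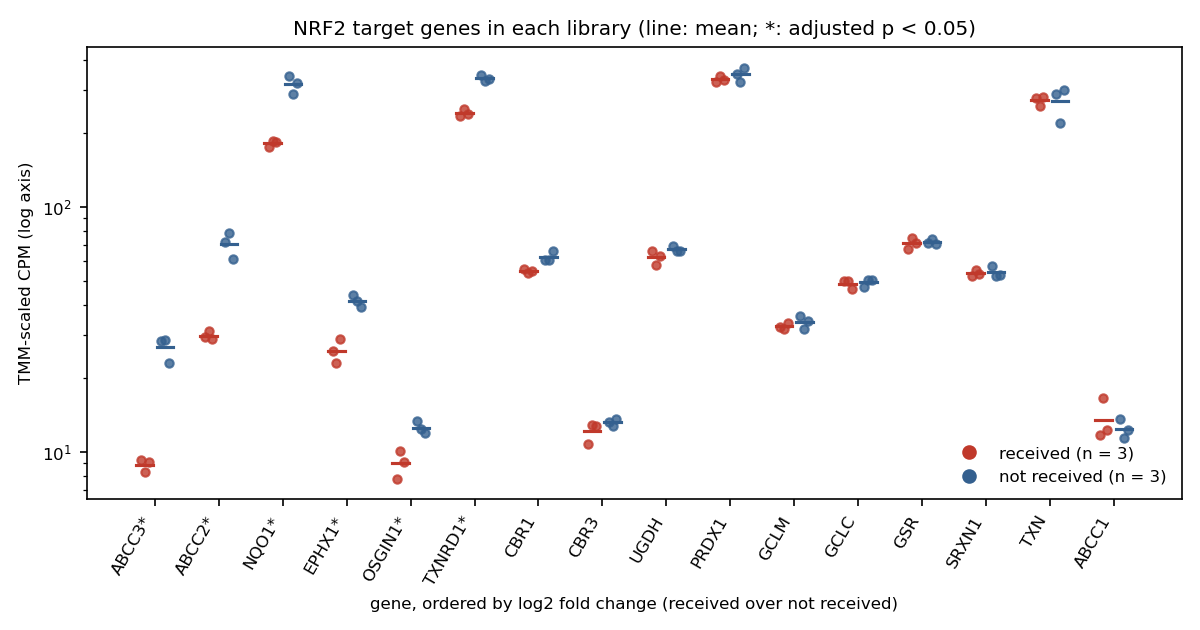
TMM-scaled CPM (log axis) of the 16 tested NRF2 targets in each received library (red, left of each pair) and each not-received library (blue, right), with the group mean as a line. For the 6 starred genes, called at an adjusted p under 0.05, the red points lie below all blue points; for GCLC, GCLM, GSR, SRXN1 and TXN the colours overlap.

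The largest decreases were in efflux pumps. ABCC3 and ABCC2 encode the multidrug resistance proteins MRP3 and MRP2, which export glutathione and glucuronide conjugates across the cell membrane. ABCC3 had 9.26, 8.31 and 9.06 CPM in received libraries, against 28.3, 28.7 and 23.1 CPM in not-received libraries. That is 3.01-fold lower with no overlap (log2 fold change -1.59 ± 0.11, SE; edgeR adjusted p = 5.94e-07). ABCC2 stood at 29.4, 31.2 and 28.8 CPM in received libraries and at 71.8, 78.2 and 61.2 CPM in not-received libraries. Received cells were 2.37-fold lower, with no overlap and a log2 fold change of -1.24 ± 0.09 (SE; edgeR adjusted p = 1.43e-06). ABCC1, which encodes MRP1, the family member that exports glutathione and its conjugates in most tissues, did not go with them. It had 11.7, 16.6 and 12.3 CPM in received and 13.6, 11.4 and 12.3 CPM in not-received libraries, and the groups overlapped (log2 fold change 0.13, interval -0.16 to 0.42). The ABCC3 to ABCC1 ratio within a library was 0.790, 0.500 and 0.738 in received cells and 2.08, 2.52 and 1.88 in not-received cells.

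The detoxifying enzymes NQO1 and EPHX1 fell next. NQO1, a reductase that turns quinones into hydroquinones and the most used marker of NRF2 activity, had 176, 186 and 184 CPM in received libraries. In not-received libraries it had 342, 289.6 and 322 CPM, so that the groups were far apart compared with the spread inside each (182 ± 5.19 against 318 ± 26.4 CPM, SD, n = 3 each). The log2 fold change was -0.80 ± 0.07 (SE; edgeR adjusted p = 4.07e-06) and was -0.87 without not-received replicate 2. EPHX1, the microsomal epoxide hydrolase, had 25.8, 23.2 and 28.8 CPM in received and 43.9, 41.2 and 39.2 CPM in not-received libraries. The received libraries were all lower, with a log2 fold change of -0.68 ± 0.09 (SE; edgeR adjusted p = 0.000187). EPHX1 overlaps TMEM63A in the annotation, a gene with a log2 fold change of -0.13 that was not called.

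TXNRD1, the cytosolic selenoenzyme that keeps thioredoxin reduced, stood at 235, 252 and 241 CPM in received libraries and at 345, 326 and 334 CPM in not-received libraries. All received libraries were lower (log2 fold change -0.47 ± 0.06, SE; edgeR adjusted p = 8.62e-05). Its substrate TXN, thioredoxin 1, had 279, 259.8 and 283 CPM in received and 289.6, 221 and 300.4 CPM in not-received libraries. These groups overlapped, and the interval of the TXN log2 fold change was -0.23 to 0.27, with not-received replicate 2 as the lowest library of the 6. Within a library the TXNRD1 to TXN ratio was 0.843, 0.968 and 0.851 in received and 1.19, 1.48 and 1.11 in not-received cells. OSGIN1, an oxidative stress-induced growth inhibitor, had the highest adjusted p of the 6, with 7.77, 10.1 and 9.06 CPM in received and 13.4, 12.4 and 11.9 CPM in not-received libraries. Its received libraries were all lower, with -0.48 ± 0.12 on the log2 scale (SE; edgeR adjusted p = 0.0135), and its call was lost without received replicate 1 (edgeR adjusted p = 0.0777) or received replicate 3 (0.0509). OSGIN1 overlaps NECAB2 in the annotation, a gene with a log2 fold change of -0.61 that was not called. NECAB2 had 3.07, 2.25 and 1.78 CPM in received and 3.91, 2.93 and 4.12 CPM in not-received libraries. The part of NECAB2 reads in OSGIN1 was not tested.

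Targets at the start of glutathione synthesis had nearly equal levels in the 2 groups. GCLC and GCLM are the catalytic and modifier subunits of glutamate-cysteine ligase, the rate-limiting enzyme of glutathione synthesis. GCLC had 49.7, 49.99 and 46.2 CPM in received and 47.3, 50.4 and 50.2 CPM in not-received libraries. GCLM had 32.4, 31.6 and 33.6 CPM in received and 35.8, 31.7 and 34.1 CPM in not-received libraries. Both overlapped between groups, with 95% intervals of the log2 fold change of -0.17 to 0.13 for GCLC and -0.22 to 0.11 for GCLM. The GCLC to GCLM ratio averaged 1.496 ± 0.109 in received and 1.46 ± 0.134 in not-received cells (SD, n = 3 each). By contrast the NQO1 to GCLM ratio was 5.43, 5.87 and 5.47 in received cells and 9.55, 9.13 and 9.43 in not-received cells.

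Values of GSR, SRXN1 and PRDX1, which act on glutathione and peroxides, also overlapped between groups. GSR, which reduces oxidised glutathione, had 67.3, 74.9 and 71.6 CPM in received and 71.4, 74.0 and 70.5 CPM in not-received libraries (interval of the log2 fold change -0.16 to 0.12). SRXN1, sulfiredoxin, which rescues overoxidised peroxiredoxins, had 52.1, 55.5 and 53.4 CPM in received and 57.6, 52.5 and 52.7 CPM in not-received libraries (interval -0.16 to 0.13). PRDX1, the main cytosolic peroxiredoxin, had 324, 343 and 329 CPM in received and 349, 325 and 371 CPM in not-received libraries (interval -0.20 to 0.06). In each of the 3 a change as large as that of TXNRD1 lies outside the interval. The carbonyl reductases CBR1 and CBR3 and the glucuronate-forming enzyme UGDH had log2 fold changes of -0.19, -0.12 and -0.10 and were not called. CBR1 was called lower without not-received replicate 2 (log2 fold change -0.21, edgeR adjusted p = 0.0309). ME1, cytosolic malic enzyme, had 0, 0 and 1 counts in received and 3, 3 and 1 counts in not-received libraries and was too low to test.

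The promoters of the targets show how the element is placed in genes that fell and in genes that did not. A promoter window of 300 bases, running from 250 bases before to 50 after a RefSeq start site (GRCh38.p14), was found for 41 of the 52 genes and for 12 of the 17 targets. Each was searched on both strands for TGACNNNGC, the core of the antioxidant response element, which can also hold an AP-1 site. By gene, 5 of the 12 targets held it in at least 1 window, while 19.4% of the 10538 tested genes with a window did. Of the constitutive genes 3 of 23 held it. Among targets that fell it was in 2 of 5 (TXNRD1 and EPHX1) and among targets not called in 2 of 6 (GCLM and CBR1). ME1, which was not tested, was the other one. A match is a stretch of letters and not a measured binding site, and windows without one say nothing of elements farther away, such as those known upstream of NQO1.

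The windows below are 80 bases long, end before the start site and are printed along the gene's strand, with the matched letters in capitals (read on the opposite strand where they begin with GC). The first 2 genes fell, GSTP1, listed here as constitutive, fell as well, and GCLM, CBR1 and KEAP1 were not called.
TXNRD1, chr12:104215644-104215723, plus strand: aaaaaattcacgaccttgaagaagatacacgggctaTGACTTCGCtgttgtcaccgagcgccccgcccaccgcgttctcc
TXNRD1, chr12:104286894-104286973, plus strand, a second start site: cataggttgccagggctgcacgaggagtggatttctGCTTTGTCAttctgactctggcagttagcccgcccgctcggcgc
EPHX1, chr1:225825240-225825319, plus strand: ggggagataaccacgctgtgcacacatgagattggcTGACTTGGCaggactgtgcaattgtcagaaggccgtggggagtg
GSTP1, chr11:67583710-67583789, plus strand: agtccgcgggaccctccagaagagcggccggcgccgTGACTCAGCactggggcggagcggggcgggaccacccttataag
GCLM, chr1:93909431-93909510, minus strand: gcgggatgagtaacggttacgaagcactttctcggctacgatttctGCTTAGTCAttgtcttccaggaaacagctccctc
CBR1, chr21:36069829-36069908, plus strand: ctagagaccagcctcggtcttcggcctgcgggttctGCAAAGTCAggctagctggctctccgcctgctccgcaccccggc
KEAP1, chr19:10502772-10502851, minus strand: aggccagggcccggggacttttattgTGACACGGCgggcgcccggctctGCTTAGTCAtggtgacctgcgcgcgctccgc
GCLM and KEAP1 carry the same 9 letters, TGACTAAGC on the opposite strand, at 34 and 31 bases before their start sites, and the KEAP1 window holds another match on the gene's strand, TGACACGGC, at 54 bases before. At its first start site TXNRD1 holds another match, at 8 bases before, which lies outside the printed window. In EPHX1 the match begins 78 bases and in GSTP1 66 bases before the start.

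Other NRF2 targets outside the 52 genes were listed as well. Of 22 tested genes on a list of 25 such targets, 9 fell and 2 rose, with a median log2 fold change of -0.25. That is 50% called, beside 18.9% of all genes tested (9.67% lower and 9.21% higher). AKR1C1, an aldo-keto reductase that clears carbonyls and steroids, had 78.8, 80.03 and 77.5 CPM in received and 221, 169 and 204 CPM in not-received libraries. HMOX1, heme oxygenase 1 and a gene that BACH1 represses, had 26.9, 30.7 and 26.7 CPM in received and 55.7, 53.6 and 50.8 CPM in not-received libraries. These groups stood well apart, with log2 fold changes of -1.33 ± 0.09 for AKR1C1 and -0.92 ± 0.08 for HMOX1 (SE). AKR1C2 (-0.74 ± 0.11) and NR0B1, a nuclear receptor that NRF2 induces (-0.58 ± 0.12), also fell. The AKR1C genes are near-identical in sequence, and how reads were divided among AKR1C1 and AKR1C2 is uncertain. SLC7A11, the cystine importer that supplies glutathione synthesis, was not called at -0.01 on the log2 scale (edgeR adjusted p = 0.944). The 2 that rose, SLC48A1 (0.38 ± 0.12) and SQSTM1 (1.19 ± 0.39, at most 1.33 CPM), each lost their call without any 1 of 5 libraries. SLC48A1 stayed called without received replicate 1 and SQSTM1 without not-received replicate 3, and neither was called when any 1 of the other 4 libraries was omitted (edgeR adjusted p up to 0.228 and 0.186). Without received replicate 2 the SLC48A1 value was 0.24, and the SQSTM1 value lay between 0.95 and 1.45 over the settings. SQSTM1 had only 5 to 24 counts in each library, and whether reads of it were lost in counting was not tested.

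Of the 26 constitutive genes tested, 6 fell and 2 rose (median -0.00 on the log2 scale). That is 30.8% called, beside 18.9% of all genes tested. The 6 lay between -0.39 and -0.21 and none reached a 1.5-fold decrease, which 4 of the 6 targets that fell did (2.48% of all tested genes were called lower by that much and 2.47% higher). The count of 6 stayed at 6 with RLE in place of TMM scaling or with at least 1 CPM in 3 libraries. It was 5 without a low-count filter and 4 with DESeq2 or with the replicate number as a block. The count was 2 with scaling by library size alone, 3 with limma-voom and 3, 1 and 1 without received replicate 1, 2 or 3. It was 3, 5 and 3 without not-received replicate 1, 2 or 3.

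Of 13 tested genes listed as glutathione enzymes, which include the quinone reductase NQO2, 5 fell. That is 38.5% called lower, beside 9.67% of all genes tested. All 5 are transferases, which attach glutathione to electrophiles. GSTP1, the most abundant of them per kilobase, had 235, 218 and 225 CPM in received and 266, 256 and 267 CPM in not-received libraries. All received libraries were lower (log2 fold change -0.22 ± 0.06, SE; edgeR adjusted p = 0.0156), and the call was lost without received replicate 2 (edgeR adjusted p = 0.0949) or received replicate 3 (0.0694). GSTK1, the transferase of mitochondria and peroxisomes, had 69.6, 67.4 and 67.8 CPM in received and 77.3, 81.4 and 78.0 CPM in not-received libraries (log2 fold change -0.21 ± 0.06; edgeR adjusted p = 0.0283). MGST3, a microsomal transferase, had 151, 151 and 152 CPM in received and 179.9, 156 and 191 CPM in not-received libraries (-0.21 ± 0.07; edgeR adjusted p = 0.0489). Leaving out any 1 received library ended the calls of GSTK1 (edgeR adjusted p up to 0.118) and MGST3 (0.137 to 0.1497), and leaving out not-received replicate 1 or 3 ended that of MGST3 (0.111 and 0.154). Without not-received replicate 2 the log2 fold change was -0.29 for MGST3 (edgeR adjusted p = 0.000541) and -0.19 for GSTK1 (0.0321).

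GSTM2 and GSTM4, cytosolic transferases of the mu class, were also called. GSTM2 had 9.63, 8.26 and 7.45 CPM in received and 11.0, 10.3 and 12.03 CPM in not-received libraries (log2 fold change -0.39 ± 0.13; edgeR adjusted p = 0.0461). GSTM4 had 12.1, 12.1 and 13.8 CPM in received and 15.5, 15.3 and 15.96 CPM in not-received libraries (-0.30 ± 0.10; edgeR adjusted p = 0.0488). In both genes the received libraries were all lower, and both calls sat at the threshold. GSTM2 was called in 5 and GSTM4 in 2 of 13 alternative settings, with edgeR adjusted p up to 0.176 and 0.168. GSTM2 was not called without received replicate 2 or 3 or without not-received replicate 1 or 3, and GSTM4 was not called without any 1 of the 6 libraries. Without not-received replicate 2 the values were -0.44 for GSTM2 (edgeR adjusted p = 0.0277) and -0.31 for GSTM4 (0.0528). The mu-class genes are close paralogs and their reads may have been split or shared. GSTM3 of the same cluster had 0 counts in all 6 libraries, which allows at most 0.167 CPM in the shallowest of them, and MGST2 had 3 to 7 counts in each library; neither was tested.

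Glutathione peroxidases, which use glutathione to remove peroxides, did not follow. GPX4, which reduces lipid peroxides and so guards against ferroptosis, had 198, 177 and 198 CPM in received and 194, 187 and 201 CPM in not-received libraries (interval of the log2 fold change -0.15 to 0.11). GPX1, its abundant relative for soluble peroxides, had 238, 246 and 262 CPM in received and 278, 216 and 251 CPM in not-received libraries (interval -0.18 to 0.18). The groups overlapped for both. GPX8, a peroxidase of the endoplasmic reticulum, GSS, which completes glutathione, GSTO1, MGST1 and NQO2 had log2 fold changes between -0.02 and 0.12 and were not called. GPX3, the secreted peroxidase, stood at only 1.03 ± 0.0567 CPM in received and 1.49 ± 0.414 CPM in not-received cells (SD, n = 3 each), and its interval of -1.14 to 0.14 leaves its direction undetermined at this depth.

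In the thioredoxin and peroxiredoxin group 1 of 9 genes rose and 0 fell by edgeR, with 0 lower at an unadjusted p under 0.05 and 0 lower by DESeq2 or limma-voom. The share called, 11.1%, was below the 18.9% of all genes tested. TXNIP, the thioredoxin-interacting protein that binds reduced thioredoxin and restrains glucose uptake, had 687, 709.6 and 594 CPM in received libraries, against 464, 506 and 559.9 CPM in not-received libraries. The lowest received library lay above the highest not-received one, by a small margin, and the log2 fold change was 0.38 ± 0.08 (SE; edgeR adjusted p = 0.00715). The TXNIP call held in all 13 alternative settings, with edgeR adjusted p up to 0.0425. The TXNIP to TXN ratio overlapped between groups, at 2.46, 2.73 and 2.10 in received and 1.60, 2.29 and 1.86 in not-received cells.

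Of the 9 genes 7 had positive values, and TXNIP alone was called. PRDX3, the peroxiredoxin of the mitochondrial matrix, had 206, 205 and 203 CPM in received and 193, 148 and 193 CPM in not-received libraries. It was not called (log2 fold change 0.21, interval -0.00 to 0.41, edgeR adjusted p = 0.152), and the value was 0.09 without not-received replicate 2, the library at 148 CPM. TXN2 and TXNRD2, the mitochondrial thioredoxin and its reductase, had log2 fold changes of 0.14 (edgeR adjusted p = 0.129) and 0.05 (0.686), and PRDX5, which is found in mitochondria, peroxisomes and cytosol, had -0.08. PRDX6, a peroxiredoxin that also repairs membrane lipids, was at the threshold, at 0.18 ± 0.06 on the log2 scale (SE; edgeR adjusted p = 0.0594). It was called in 5 of 13 alternative settings, among them DESeq2 (adjusted p = 0.0435) and the fit without not-received replicate 3 (edgeR adjusted p = 0.0157). PRDX2, PRDX4 and TXNRD3 were not called.

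The 2 intracellular superoxide dismutases went opposite ways. SOD2, the manganese enzyme of mitochondria, had 307, 307 and 273 CPM in received libraries and 225, 211 and 239.6 CPM in not-received libraries. SOD1, the copper-zinc enzyme of the cytosol, had 164, 156 and 157 CPM in received libraries and 190.0, 197 and 187 CPM in not-received libraries. Neither gene overlapped between groups. The log2 fold change was 0.39 ± 0.07 for SOD2 (SE; edgeR adjusted p = 0.00131) and -0.26 ± 0.06 for SOD1 (edgeR adjusted p = 0.00528), and both calls held in all 13 alternative settings. Within a library the SOD2 to SOD1 ratio was 1.87, 1.96 and 1.74 in received cells and 1.19, 1.07 and 1.28 in not-received cells. SOD2 is also a textbook target of NF-kB, and WTAP, which overlaps SOD2 in the annotation, was called higher too (log2 fold change 0.38). The sources used here do not say how overlapping genes were counted, and the part of WTAP reads in SOD2 was not tested. SOD3, the secreted dismutase, and CAT, catalase, were not called. CAT had 42.1, 42.5 and 41.3 CPM in received and 39.6, 41.7 and 45.6 CPM in not-received libraries, with an interval of -0.17 to 0.15.

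**Figure D3:**
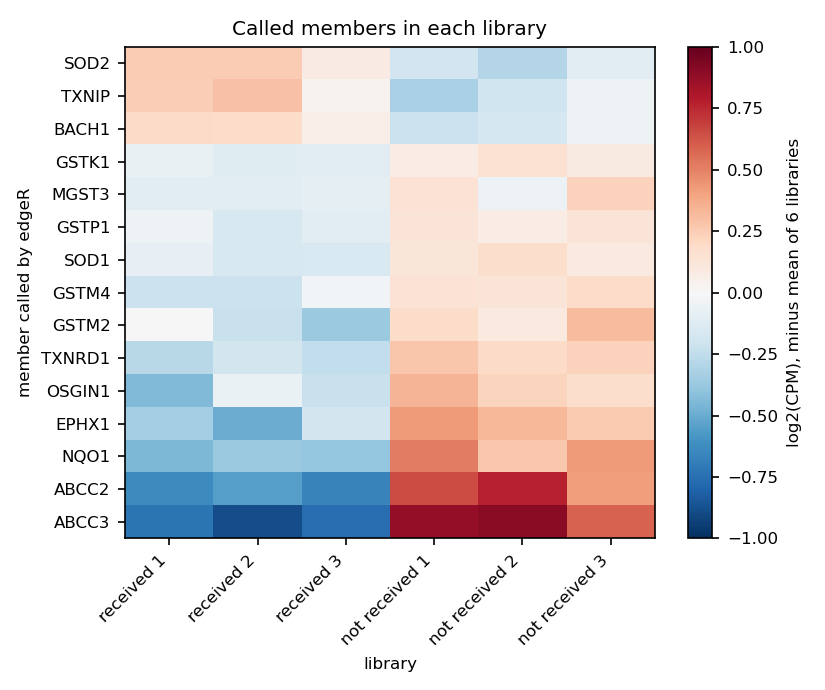
Log2 CPM of the 15 called genes in each library, less the mean of the 6 libraries, with received libraries on the left and not-received libraries on the right. The 3 genes at the top are higher and the 12 below are lower in received cells; among these 12, GSTP1, GSTK1 and MGST3 differ least between groups (-0.22 to -0.21) and ABCC2 and ABCC3 most.

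Supply routes of the thiol systems were listed separately. Of 18 tested genes for cysteine and glutathione turnover, 5 rose and 0 fell by edgeR, with a median log2 fold change of 0.12. Likewise 0 were lower at an unadjusted p under 0.05, by DESeq2 or by limma-voom. The share called higher was 27.8%, beside 9.21% of all genes tested. The 5 that rose include peptidases and other enzymes listed for steps of glutathione turnover. GGT1, the gamma-glutamyl transferase that opens glutathione outside the cell, had a log2 fold change of 0.28 ± 0.07, LAP3, a leucine aminopeptidase, 0.25 ± 0.07, ESD, which releases glutathione from S-formylglutathione, 0.20 ± 0.07, and CNDP2, a dipeptidase, 0.20 ± 0.06. ANPEP, a membrane aminopeptidase at 2.41 CPM in received and 1.26 CPM in not-received cells, was the other one that rose. Further genes of this list for glutathione breakdown were not called. They were CHAC1 (log2 fold change 0.12), CHAC2 (0.19), GGCT (0.24, edgeR adjusted p = 0.0573) and GGT7 (-0.17). The count of 5 was 1 without any single received library, and 2 or 3 without not-received replicate 1 or 2. GGT1 was lost when received replicate 1 or 3 was omitted (0.0909 at most by edgeR after adjustment) and LAP3 without received replicate 2 or 3 (0.104). ESD and CNDP2 were lost without each library but not-received replicate 3 (0.164 and 0.134), and ANPEP without received replicate 1 or 2 or not-received replicate 1 (0.141).

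Sources of NADPH split. Of 13 tested, 4 rose and 2 fell (median 0.00 on the log2 scale). That is 46.2% called, beside 18.9% of all genes tested. ALDH1L2, of mitochondrial folate metabolism, fell by 0.35 ± 0.08. ME2, mitochondrial malic enzyme (0.32 ± 0.08), and NADK2, the mitochondrial NAD kinase (0.34 ± 0.10), were among those that rose. The count of 4 was 1, 0 and 1 without received replicate 1, 2 or 3 and 2, 2 and 3 without not-received replicate 1, 2 or 3. ALDH1L2 was not called without received replicate 3 (edgeR adjusted p = 0.0512). ME2 lost its call when received replicate 2 or 3 was omitted (edgeR adjusted p up to 0.0639), and NADK2 when replicate 1 or 2 of either group was (0.147).

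In lists of further antioxidant relatives and of proteins that act on NRF2, the shares called, 20% and 18.2%, were near the 18.9% of all genes. Of 15 tested relatives 1 rose and 2 fell: GSTCD (0.34 ± 0.08) rose, and the methionine sulfoxide reductases MSRA (-0.56 ± 0.18) and MSRB3 (-0.36 ± 0.08) fell. MSRB3 held in all 13 alternative settings, MSRA was called in 4 of them (not without any 1 received library, nor without not-received replicate 1 or 3), and GSTCD was lost without received replicate 2 (edgeR adjusted p = 0.0514). Of 11 tested genes for NRF2 degradation and co-regulation, 2 fell. They were SYVN1, a ubiquitin ligase of the endoplasmic reticulum that can act on NRF2 (-0.45 ± 0.09), and the coactivator CREBBP (-0.41 ± 0.11), whose call was lost without any 1 received library (edgeR adjusted p up to 0.109) and whose value was -0.25 without not-received replicate 2. EP300, the paralog of CREBBP, was not called (-0.39 ± 0.13, edgeR adjusted p = 0.0798), but was called in 5 of 13 alternative settings, among them DESeq2 (adjusted p = 0.00661). Its value was -0.21 without not-received replicate 2 (edgeR adjusted p = 0.0363). CUL3, the ligase scaffold that KEAP1 uses, stood at 0.13 on the log2 scale (edgeR adjusted p = 0.149).

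Per kilobase of exon, the system spans a wide range of levels in these cells. Using exon lengths of GENCODE release 29, TXN led at 315 CPM per kb in received and 311 CPM per kb in not-received cells, followed in received cells by PRDX1 at 265 and 278 and GSTP1 at 235 and 274 CPM per kb. The 6 targets that fell lay lower, from NQO1 at 58.2 CPM per kb in received and 102 in not-received cells down to ABCC3 at 1.38 in received and 4.16 in not-received cells. GCLC (7.63 and 7.73) and GCLM (6.64 and 6.91), which were not called, lay inside that range. These levels depend on the exon model, which for SOD2 spans 17721 bases of exon.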

How the data were processed

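Poly-T captured mRNA of 6 sorted U87 samples was sequenced in paired ends, per the labels' protocols. The authors deposited 1 table a library of whole-number read counts, not normalized, by gene symbol. Tools named in the submitters' processing notes are DESeq and R 3.6.1. The sources used here do not name the aligner, counter, strand setting, build or annotation. Of the 52 genes, 28 overlap another gene in RefSeq, so reads of overlapping or paralogous genes may be misassigned. Genes were kept with filterByExpr, scaled by TMM and tested with glmQLFit (robust) and glmQLFTest of edgeR 4.0.16 (limma 3.58.1, R 4.3.3), with the group as the single term. SE is the absolute log2 fold change over the root of F. The steps were tested on simulated counts. Replicates differed by more than sampling noise (chi-square a gene 3.42 to 22.2), so none was merged. The correlation of deviations was -0.20, -0.07 and 0.05 for equal replicate numbers and -0.19 to 0.25 for unequal ones. With 3 libraries a group, and not-received replicate 2 apart from its group, this cannot exclude that samples were paired. Genes given in every library are those called at a mean log2 CPM no lower than 1 plus a list of named regulators and enzymes; from other lists up to 4 called genes of largest change were taken. ABCC1 and PRDX3 values by library, TMEM63A, NECAB2, WTAP, SLC7A11, SQSTM1, ANPEP, EP300 and CUL3 were added after their values were seen. The genes and lists were chosen with earlier results of these data known. Alternatives were other scalings, DESeq2 1.42.0, limma-voom, other filters, a replicate block and each library left out. The values of 1 gene on the supply lists are not reported here.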

Additional observations from a re-analysis of the deposited data

How the results depend on the processing

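No tested gene among the 52 changed direction while called in any of 13 alternative settings. Of the 15 called, NQO1, TXNRD1, ABCC2, ABCC3, EPHX1, TXNIP, SOD1 and SOD2, 8 in all, were called in each; of the 34 not called, CBR1, PRDX3 and PRDX6 were called in at least 1. With the replicate block the 52 genes gave 3 higher and 10 lower calls, against 3 and 12 without it. The labels give only a shared number, and GSTM2 (edgeR adjusted p = 0.0518) and GSTM4 (0.0622) were lost. Scaling by library size alone gave 4 higher and 8 lower, against 3 and 12, and over all genes 60.3% of calls were higher against 48.8%. Without a low-count filter 2084 genes were called lower against 1364, 5 of the 52 genes higher against 3, and 4 constitutive genes higher against 2. Constitutive genes called lower were 2 with library size alone and 3 with limma-voom, against 6. Other NRF2 targets called higher were 0 with limma-voom and 1 with DESeq2, without a filter, with at least 1 CPM in 3 libraries or with the block, against 2. Turnover genes called higher were 3 with the block, against 5. Other antioxidant relatives called lower were 1 with library size alone, DESeq2, limma-voom or the block, against 2. With 1 library left out, all genes gave 597 to 1355 higher and 727 to 1568 lower calls, the 52 genes 2 to 4 higher and 6 to 12 lower, direct targets 5 to 7 lower, constitutive genes 2 to 3 higher and 1 to 5 lower, and regulators 0 to 1 higher. The other lists gave 0 to 1 higher and 7 to 12 lower (other targets), 1 to 6 higher (turnover), 0 to 3 higher and 1 to 2 lower (NADPH), 0 to 1 higher and 1 to 3 lower (relatives) and 1 to 3 lower (degradation). Leaving out received replicate 1, 2 or 3 gave 8, 7 or 6 lower calls among the 52. At this depth the intervals of GPX3 and TXNRD3, genes near 1 to 2 CPM, were too wide to give a direction.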
